A study of Mus musculus with 40 samples.

Results

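The egg surface and fertilization genes described here are 7 genes whose products act where sperm and egg meet: Cd9, Cd81, Izumo1r, Astl, Oosp1, Itga6 and Itgb1. Their members were the probe sets of both deposited array tables whose platform gene symbol is exactly one of these names, with Folr4 accepted as the older name of Izumo1r. The rule used no measured value, though the 7 genes were chosen with earlier results of these data known. The rule found 13 probe sets of 45037 in all, 12 on array type 430A and 1 on 430B, and every one of the 7 genes had at least 1. The test took in probe sets with a scaled signal of 100 or more on at least 4 of the 20 arrays of that type, and 9 of the 13 passed. The 4 that did not were all probe sets of Itgb1, so all 7 genes could be tested. Where a gene had several, counts of genes use its tested probe set of highest mean signal.

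Fertilization in mammals needs the egg plasma membrane to bind and fuse with the sperm, and then to bar further sperm. Izumo1r encodes Juno, a lipid-anchored member of the folate receptor family that binds the sperm protein IZUMO1. Cd9 and Cd81 encode tetraspanins, membrane organizers of the egg surface, and eggs of mice lacking Cd9 bind sperm but rarely fuse. Itga6 and Itgb1 encode integrin subunits that pair into a laminin receptor, once proposed as the sperm receptor of the egg and later found dispensable for fusion. Astl encodes ovastacin, a protease stored in cortical granules that is released at fertilization and cleaves zona pellucida protein ZP2. Oosp1 encodes a small protein secreted by oocytes.

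The series measured RNA of mouse oocytes at 5 stages of follicle growth on 2 Affymetrix array types, with 4 biological replicates per stage on each, 40 samples in all. The mice of all groups were SJLB6 females. Primordial follicle oocytes were from mice 2 days old, pooled 400 to a sample. Primary follicle oocytes were from mice 6 days old with 90 in a pool, secondary from mice 12 days old with 60, small antral from mice 17 days old with 30 and large antral from mice 24 days old with 20. Age and pool size changed with every stage, so stage, age and pool size cannot be told apart. For 3 of the 4 small antral samples on 430B the protocol text names 12 days and 60 oocytes, which are the secondary values. Among the 7 genes this touches Astl alone, the gene measured on 430B.

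The deposited primordial replicates 2, 3 and 4 have the form of means with replicate 1. Doubling such a value and subtracting replicate 1 gave no value below 0, beyond rounding, over 22526 probe sets of 430A and 22411 of 430B. The other 100 of 430A, whose values carry more decimals than the rest at other stages too, were left out of this count and of the unmixed values. The same step between other sample pairs was negative for between 1120 and 2857 probe sets on 430A and between 1989 and 3790 on 430B. Differences of the 7 genes from the primordial stage are therefore given in both forms, from the deposited values and from the unmixed values obtained by that subtraction. Those of other genes are from deposited values unless the unmixed one is named. The deposited primordial samples share replicate 1, so their SD is not that of 4 separate samples. Standard errors and adjusted p values on deposited values take in that spread and share this limit. For Cd9 from primordial to primary the standard error was 0.18 deposited and 0.52 unmixed. Within stages the arrays correlated at 0.957 or more on 430A for deposited primordial values, and between 0.795 and 0.931 for unmixed ones. On 430B, which measured Astl, these were between 0.93 and 0.939 deposited and between 0.744 and 0.78 unmixed. Oocyte markers were present at every stage, and the summed signal of 10 of them on 430A varied with stage. It lay between 68605.7 and 88009.6 in deposited primordial samples, 117964.5 and 121629.1 in primary and 119471.8 and 131518 in secondary samples. It was between 105947.2 and 118669.4 in small antral and between 81048.6 and 89966.2 in large antral samples. Each array's signal is relative to its own total, so fewer cells of a type in a pool and less RNA per cell cannot be told apart.

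From the primordial to the primary stage, 5 of the 7 genes rose (Cd9, Izumo1r, Astl, Oosp1 and Itga6), Itgb1 fell, and the difference of Cd81 did not pass the test. On 430A 26.5% of the 15845 tested probe sets rose and 30.0% fell from primordial to primary, and on 430B 12.0% of 19115 rose and 19.7% fell. With unmixed values 24.6% rose and 25.0% fell on 430A, and 10.2% rose and 12.1% fell on 430B. The rises ran from 2.31-fold for Izumo1r to 6.85-fold for Astl on deposited values, and from 1.95-fold to 8.18-fold, for Izumo1r and Cd9, on unmixed ones. After the primary stage the 7 genes parted. Cd9 and Astl fell again, Cd81 fell between primary and secondary, Itga6 rose further from primary to large antral, and Izumo1r and Oosp1 did not differ by the test between those stages. The deposited Cd9 samples of the primordial and the large antral stage overlapped, as did those of the weaker tested Itgb1 probe set, 1426918_at.

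**Figure D1:**
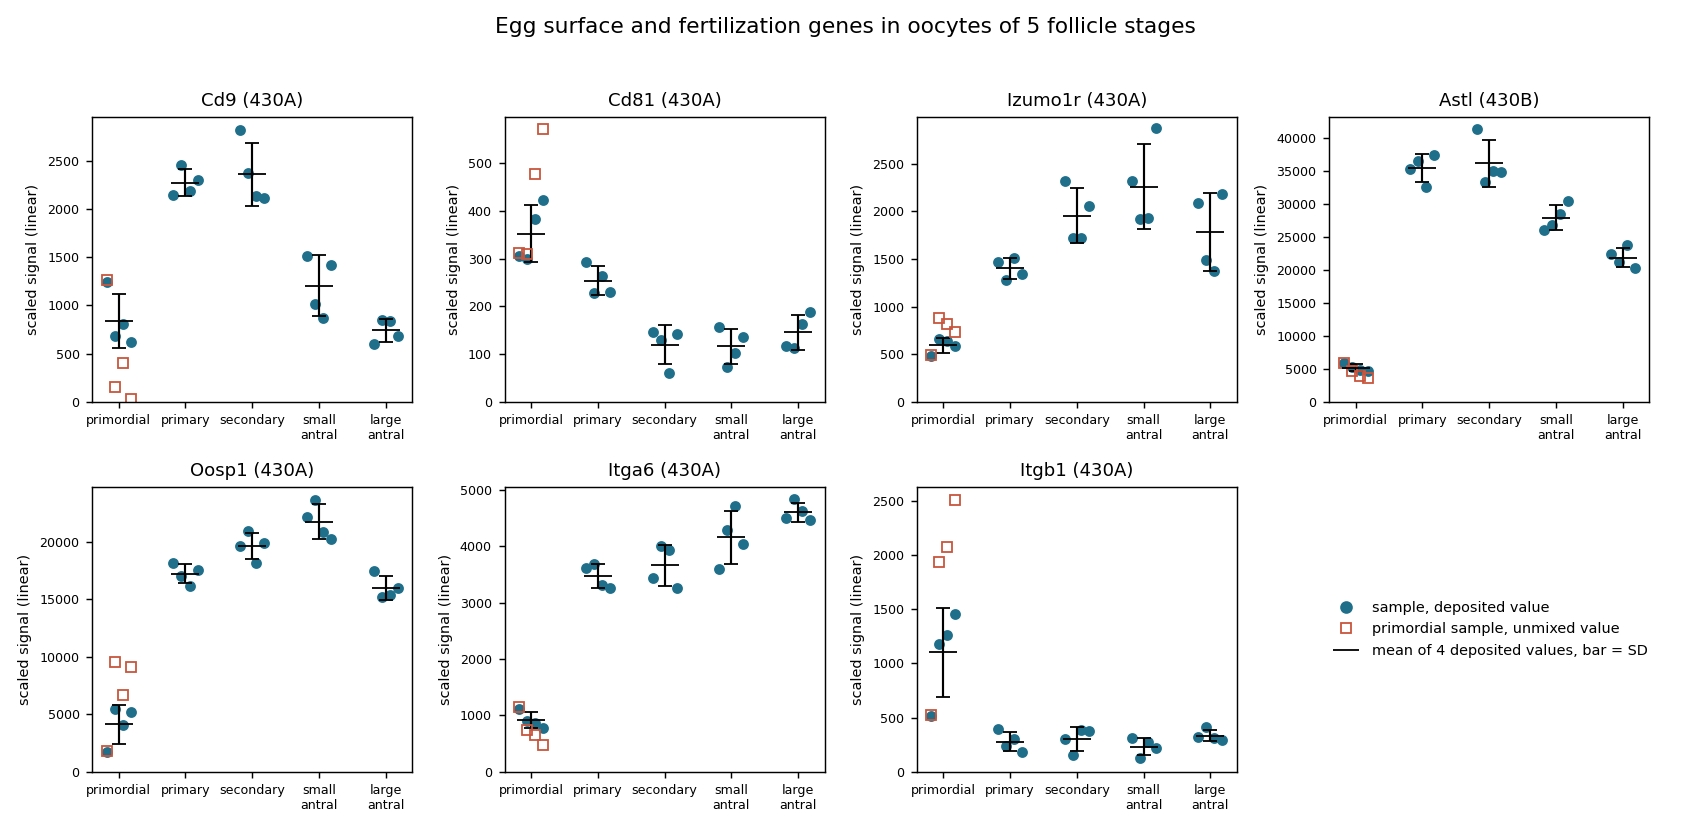
Scaled signal (linear axis, each array scaled to a trimmed mean of 500) of the 7 genes in the 4 samples of each follicle stage, with the mean and SD of the deposited values in black. Open squares are unmixed primordial values, where Cd9 spans 32.4 to 1267.2 and Itgb1 spans 524 to 2506.4, while Astl is at most 5890 in each and reaches 32508.3 or more in every primary sample.

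The counts at the first step, 5 of the 7 genes up and 1 down, were the same with deposited and unmixed values. Their median log2 change was 1.45 deposited and 1.62 unmixed, beside -0.08 and -0.06 over all tested probe sets of 430A. Over those of 430B the medians were -0.23 and -0.19. Between primary and secondary, Izumo1r rose and Cd81 fell, where 9.49% rose and 8.73% fell on 430A and 3.13% and 2.22% on 430B. The median of the 7 was 0.08.

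From secondary to small antral, Cd9 and Astl fell and none of the 7 rose; with unmixed primordial values in the fit 0 of the 7 passed. The shares over all tested were 6.12% up and 10.1% down on 430A, and 2.19% up and 3.37% down on 430B. From small to large antral Cd9 alone passed, falling, with between 0 and 3 genes called when any 1 sample was left out, where 4.70% rose and 5.67% fell on 430A and 0.523% and 1.35% on 430B. The median of the 7 was -0.02 at the first of these steps and -0.35 at the second, beside medians between -0.01 and 0.02 over all tested probe sets.

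Over the whole span from primordial to large antral 4 of the 7 rose (Izumo1r, Astl, Oosp1 and Itga6) and 2 fell (Cd81 and Itgb1) on deposited values, and with unmixed values Cd9 joined those that rose. On 430A 30.2% of probe sets rose and 34.6% fell, and on 430B 13.8% and 24.6%. With unmixed values these were 27.8% and 29.5% on 430A and 12.2% and 17.4% on 430B. Itga6 rose by 2.30 (adjusted p = 2.6e-15), Astl by 2.08 (5.9e-15), Oosp1 by 2.07 (3.3e-09) and Izumo1r by 1.52 (3.5e-09). Unmixed, these rises were 2.66 for Itga6 (adjusted p = 1.9e-11), 2.29 for Astl (1.8e-12), 1.51 for Oosp1 (0.00028) and 1.28 for Izumo1r (3.4e-06). Cd81 fell by 1.13 (adjusted p = 6.3e-05) and Itgb1 by 1.54 (5.7e-05), and unmixed their changes were -1.30 (adjusted p = 0.00011) and -2.07 (5.7e-05). The comparison of primary with large antral, which needs no primordial sample, was added after the data had been seen. There Itga6 rose and Cd9, Cd81 and Astl fell, where 19.3% of 430A rose and 21.3% fell and on 430B 7.44% and 8.23%. These comparisons share samples with the consecutive steps.

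**Figure D2:**
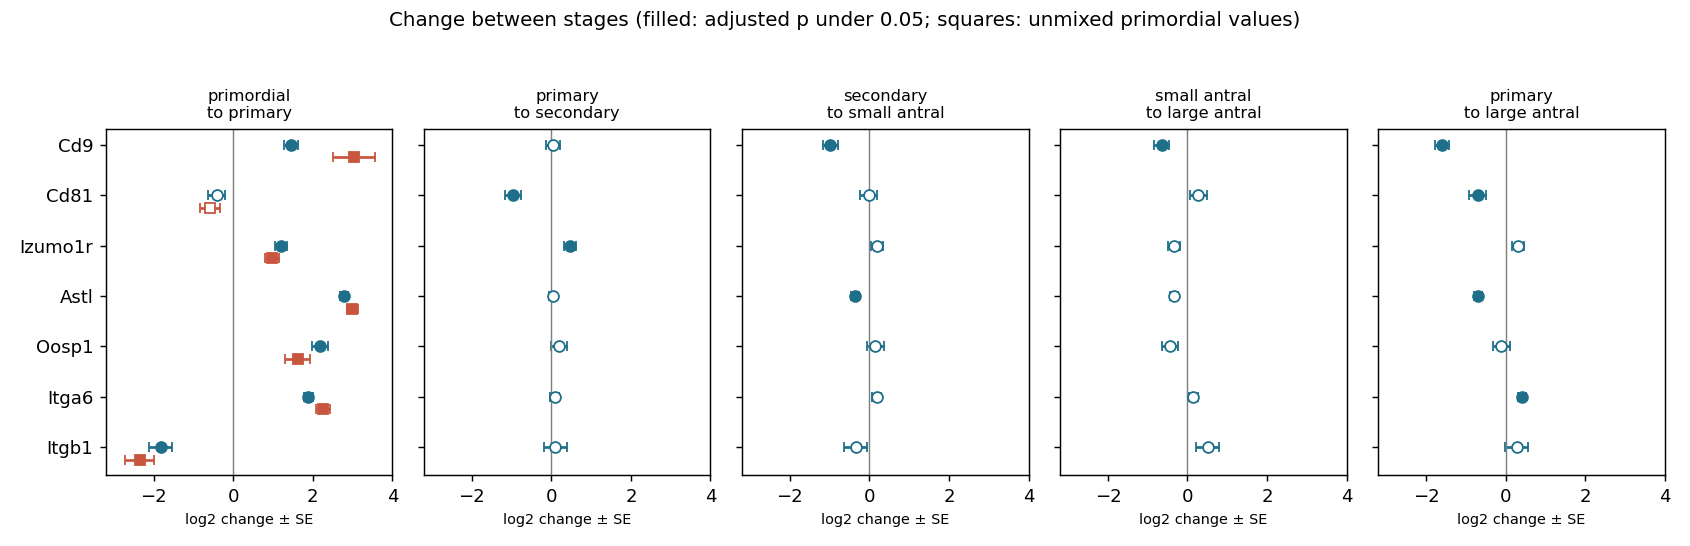
Log2 change with its standard error (limma, 4 samples per stage) of the 7 genes between consecutive stages and from primary to large antral; filled marks have an adjusted p under 0.05 and squares use unmixed primordial values. At the first step 5 genes have filled marks right of 0, and left of it Itgb1 has filled and Cd81 open marks. In the later panels Cd9, Cd81 and Astl have filled marks left of 0. Filled marks right of 0 are there for Izumo1r from primary to secondary and for Itga6 from primary to large antral.

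The start sites of Cd9, Izumo1r, Astl and Oosp1, which rose together from primordial to primary, are shown with that of Itgb1, which fell. Each sequence is the 250 bases before the start in RefSeq (build GRCm38.p6), written 5′ to 3′ on the strand of the gene, with every E-box (CANNTG, the core bound by basic helix-loop-helix proteins such as FIGLA) in capitals. Cd9 is at chr6:125494761-125495010 on the minus strand, Izumo1r at chr9:14903768-14904017 on the minus strand, Oosp1 at chr19:11691052-11691301 on the minus strand and Itgb1 at chr8:128685404-128685653 on the plus strand. Astl has 2 start sites in the table, and the downstream one, at chr2:127341386-127341635 on the plus strand, is printed.
Cd9: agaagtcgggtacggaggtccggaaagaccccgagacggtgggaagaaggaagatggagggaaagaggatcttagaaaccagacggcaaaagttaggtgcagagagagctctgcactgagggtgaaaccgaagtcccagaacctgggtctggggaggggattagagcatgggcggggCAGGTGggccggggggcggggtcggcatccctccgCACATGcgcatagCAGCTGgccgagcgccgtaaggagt
Izumo1r: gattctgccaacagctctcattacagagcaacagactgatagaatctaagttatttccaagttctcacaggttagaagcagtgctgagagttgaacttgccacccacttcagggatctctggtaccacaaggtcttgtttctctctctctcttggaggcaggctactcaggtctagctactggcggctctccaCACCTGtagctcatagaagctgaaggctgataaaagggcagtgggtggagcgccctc
Astl: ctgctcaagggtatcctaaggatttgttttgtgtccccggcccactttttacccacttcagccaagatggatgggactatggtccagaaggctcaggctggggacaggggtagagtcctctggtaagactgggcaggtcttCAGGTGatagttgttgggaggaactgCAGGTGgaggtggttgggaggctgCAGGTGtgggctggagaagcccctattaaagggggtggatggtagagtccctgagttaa
Oosp1: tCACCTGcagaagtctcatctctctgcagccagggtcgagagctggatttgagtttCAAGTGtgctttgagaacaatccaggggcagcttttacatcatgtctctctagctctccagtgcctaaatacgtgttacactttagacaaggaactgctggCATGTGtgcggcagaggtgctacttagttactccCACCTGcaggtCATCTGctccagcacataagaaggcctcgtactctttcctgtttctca
Itgb1: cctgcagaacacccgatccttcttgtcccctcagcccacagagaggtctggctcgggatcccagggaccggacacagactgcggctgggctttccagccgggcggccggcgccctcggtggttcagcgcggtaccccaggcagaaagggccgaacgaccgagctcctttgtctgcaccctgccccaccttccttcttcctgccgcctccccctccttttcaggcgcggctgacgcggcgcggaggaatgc

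Oosp1 held 5 E-boxes, Cd9 and the printed start of Astl 3 each, Izumo1r 1 and Itgb1 0. The upstream start of Astl held 0 and Cd81 held 1. Of all 32851 windows of this length in the table, 66.2% held at least 1, so holding 1 sets none of these genes apart. The homeobox core TAATTG, searched on both strands, was in 0 of the 7 windows and in 7.17% of all. The GC box GGGCGG was in the windows of Cd9 (2), Cd81 (3) and Itgb1 (1), in neither window of Astl, in none of Izumo1r or Oosp1, and in 32.7% of all. No E-box overlapped a TAATTG. The GC share was 49.2% for Oosp1, 50% for Izumo1r, 61.6% for Cd9 and 68% for Itgb1, beside a median of 52.4% over all windows. Itga6 has no window in the table.

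Cd9, the tetraspanin required on the egg side for fusion, was measured by 1 probe set, 1416066_at. Its deposited signals were 1238.5, 682.8, 810.1 and 621.8 at the primordial stage and 2149.3, 2459.3, 2187.3 and 2301.3 at the primary stage. The ranges did not overlap, and the mean rose 2.74-fold, by 1.45 ± 0.18 on the log2 scale (SE; limma, adjusted p = 2.1e-07). Secondary samples stood at 2817.9, 2376.6, 2131.2 and 2111.9 and overlapped the primary ones (log2 change 0.04, adjusted p = 0.91). Signal then fell to 1517.9, 1011.8, 871.3 and 1421.9 at the small antral stage, by 0.98 on the log2 scale (adjusted p = 0.00039). At the large antral stage it was 600.3, 851.9, 833.4 and 682.8, all below the lowest small antral sample, a fall of 0.65 (adjusted p = 0.021). That last call was lost without small antral replicate 1 (-0.53, adjusted p = 0.086) or 4 (-0.57, 0.074), or without large antral replicate 1 (-0.56, 0.078) or 4 (-0.62, 0.053).

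Cd9 was thus highest at the primary and secondary stages. Between primary and large antral it fell by 1.59 ± 0.18 on the log2 scale, to 0.333 of its level (adjusted p = 1.2e-07). Whether the primordial level was above or below the large antral one depends on the primordial values used. The deposited means were 838.3 ± 278.1 and 742.1 ± 121.2 (SD, n = 4 each), a difference of -0.13 with adjusted p = 0.54. The unmixed primordial signals were 1267.2, 153.5, 406.7 and 32.4, with a mean of 465 ± 557.1, and the large antral stage was then higher by 1.44 ± 0.52 (adjusted p = 0.021). An exact permutation test of that single difference gave p = 0.2, two-sided, where 0.0286 is the smallest p that 4 against 4 samples allow.

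The 4 unmixed primordial samples were not alike for Cd9. Replicate 1 lay within the small antral range and replicate 4 near the bottom of the array. On unmixed values the spread of Cd9 at the primordial stage also enters the shared error, and both later falls then missed the threshold (secondary to small antral -0.98, adjusted p = 0.33, and small to large antral -0.66, adjusted p = 0.61).

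Cd81, the second tetraspanin, ran differently. Primordial samples had 305.8, 299, 382.8 and 423.7, and primary samples 292.2, 229.1, 263.2 and 230.9. The ranges did not overlap, but the difference of -0.42 ± 0.21 missed the threshold (adjusted p = 0.099), as did the unmixed difference of -0.59 (adjusted p = 0.052). It passed with 3 other settings, among them a fit of these stages alone (adjusted p = 0.027). For the unmixed difference the exact permutation test gave p = 0.0286, or 0.0343 adjusted over the 18 such tests. Cd81 then fell to 146.6, 129.7, 59.5 and 142.9 at the secondary stage, by 0.96 on the log2 scale (adjusted p = 0.0027). The small antral samples, 155.8, 72.4, 102.1 and 135.8, and the large antral samples, 117.6, 112, 163.4 and 189.1, overlapped the secondary ones. Like Cd9 it was lower at the large antral than at the primary stage, by 0.70 (adjusted p = 0.01).

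Of 29 other tetraspanins listed, 27 were on the arrays and 21 were tested. Between primordial and primary 6 rose and 6 fell, with a median log2 change of -0.30. Over all tested probe sets 26.5% rose and 30.0% fell on 430A, and 12.0% rose and 19.7% fell on 430B. With unmixed values 5 of the listed genes rose and 3 fell. For this and the following lists, the counts at each step are to be read beside the shares given above for that step. Tspan14, known as a partner of the sheddase ADAM10, rose by 2.67 from a mean of 388.9 to 2639.9 (adjusted p = 7.9e-15), and Tspan6 fell by 2.07, from 750.3 to 151.9 (adjusted p = 1.4e-09). Tspan3 rose at the same step (1.07, adjusted p = 3.5e-07) and fell at the last one (small to large antral -0.59, adjusted p = 0.0071), as Cd9 did. At that last step it was the only call among the 21, and none rose. Between primary and secondary 3 rose and 5 fell. Tspan33 rose by 0.92 (adjusted p = 3.7e-07) and Cd82 by 1.30 (adjusted p = 0.00035), while Tspan31 fell by 0.70 (adjusted p = 0.0021). From secondary to small antral 3 rose and 1 fell, Tspan15 rising by 0.79 (adjusted p = 0.0037).

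The proteins that tetraspanins bind, and the linkers from membrane to actin, made a list of 8 names, of which 7 were measured and tested. Igsf8, an immunoglobulin protein that pairs with CD9 and CD81 on eggs, was nearly level from primordial to primary, 222.3 and 222.9, and its primary to secondary difference of 0.39 missed the threshold (adjusted p = 0.058). Ptgfrn, its relative, kept a mean between 148.2 and 176.8 and passed no test. Of the linkers, Ezr fell by 0.49 from primordial to primary (adjusted p = 0.0053), and Msn rose by 1.15 from secondary to small antral (23.2 to 94.2, adjusted p = 0.0011). Both of these Msn means were under the signal asked for by the filter. Msn may have been tested through its antral samples, with a large antral mean of 148.3. Rdx rose by 0.26 from primordial to primary, from a mean of 8477.7 to 10125.6 (adjusted p = 0.045). This list had 0 calls between primary and secondary and 0 between small and large antral.

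**Figure D3:**
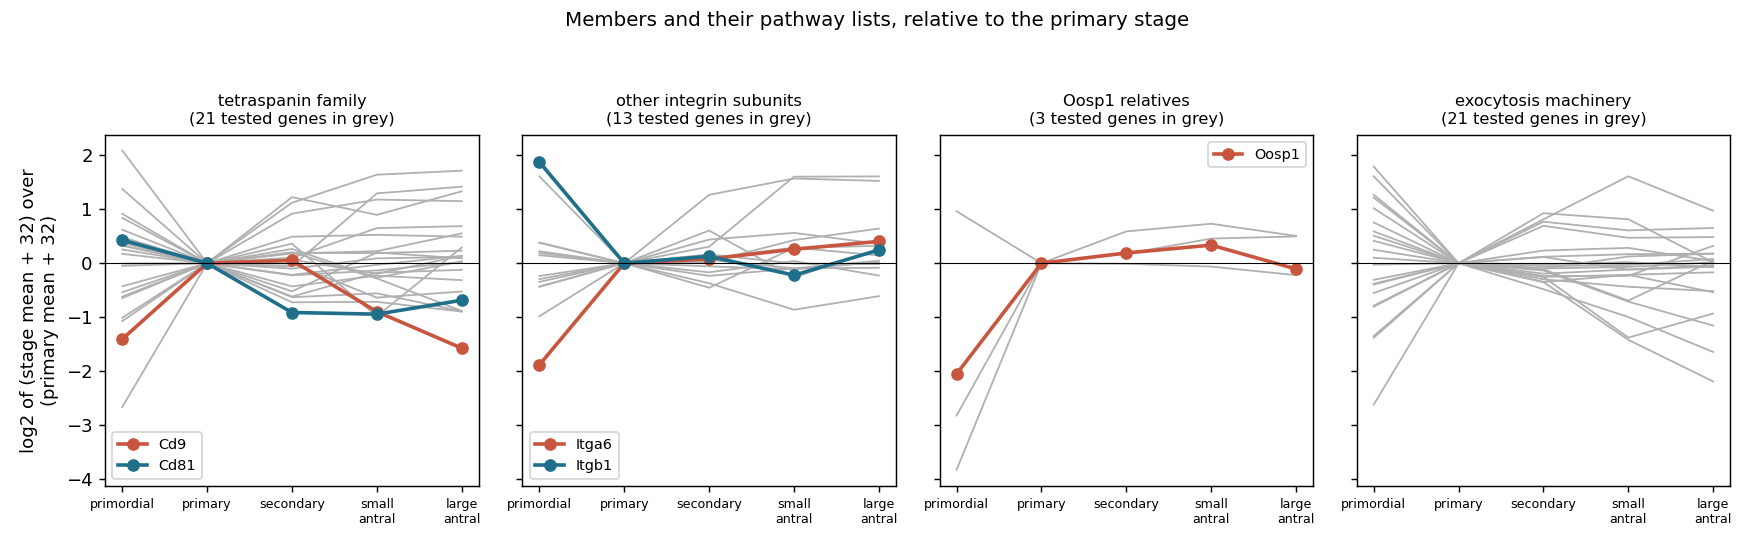
Log2 of the stage mean over the primary mean (32 added to both, deposited values) for the tested genes of 4 lists in grey and for members of the same family in colour. Cd9 rises to the primary stage and falls after the secondary, while the other tetraspanins spread both ways; Oosp1 lies with Oosp2 and Oosp3 below 0 at the primordial stage.

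Izumo1r, the egg receptor for sperm IZUMO1, rose in successive steps. Its probe set 1420700_s_at, of a kind that can match more than 1 transcript, gave 482.4, 661.1, 633.3 and 586 at the primordial stage. Primary samples gave 1469, 1280.5, 1514.2 and 1338.5, with no overlap, a rise of 1.21 ± 0.15 (adjusted p = 2.7e-07). Unmixed primordial signals were 493.6, 881.7, 815 and 730.6, and the rise from them was 0.97 ± 0.18 (adjusted p = 0.00015). Secondary samples gave 2315.3, 1720.4, 1718.1 and 2058.3, again above all primary samples (0.46, adjusted p = 0.035).

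This second rise was near the threshold. It missed without primary replicate 1 (0.49, adjusted p = 0.052), 2 (0.42, 0.093) or 4 (0.44, 0.078), and without secondary replicate 1 (0.38, 0.12) or 4 (0.43, 0.086). It missed too with the unmixed primordial values in the fit (adjusted p = 0.14). Small antral samples, 2321.6, 1921.7, 1930 and 2874.2, and large antral samples, 2089.2, 1486.1, 1371 and 2179.6, overlapped each other and the secondary stage. By its means Izumo1r was highest at the small antral stage (2261.9 ± 448.8, SD, n = 4), but neither neighbour differed from it by the test (adjusted p = 0.44 and 0.15). The large antral mean did not differ from the primary one by the test either (0.31, adjusted p = 0.10), and that difference passed without large antral replicate 3 (0.43, 0.034).

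Juno is held in the membrane by a GPI lipid anchor, so the enzymes that build this anchor were followed beside it. Of 30 listed genes, the other folate receptors and the GPI pathway, 28 were measured and 27 tested. Folr1 and Folr2 had stage means of at most 185.4 and 112.1. From primordial to primary 7 rose and 5 fell, or 5 and 3 with unmixed values. Over all tested probe sets of 430A 26.5% rose and 30.0% fell on deposited values. Pigc rose by 1.18 (adjusted p = 1.8e-09) and Pigf by 0.49 (adjusted p = 4.1e-05), while Dpm1, which makes the mannose donor of the anchor, fell by 0.88 (adjusted p = 2.7e-05) on deposited values only (unmixed -0.17, adjusted p = 0.63). Pigq was the only call from primary to secondary, rising by 0.40 (adjusted p = 0.0059). From secondary to small antral 0 rose and 4 fell, Pigp by 0.35 (adjusted p = 0.0084). At the last step 2 rose and 5 fell. Piga, of the enzyme complex that starts the anchor, rose by 0.50 (768.9 to 1094.2, adjusted p = 0.013).

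The integrin subunits moved in opposite directions at the first step. Itga6 probe set 1422445_at had 1117.8, 907, 867.4 and 774.8 in primordial samples and 3608.6, 3695.8, 3317.1 and 3263 in primary samples. It rose 3.72-fold, by 1.89 ± 0.11 (adjusted p = 2.8e-13). Unmixed primordial signals of 1143.8, 743.4, 648.6 and 475.1 gave a rise of 2.25 ± 0.17 (adjusted p = 7.5e-10). Its secondary samples were 3445.6, 4008.3, 3942.1 and 3270.3, its small antral samples 3600.7, 4289.3, 4715.7 and 4034.3, and its large antral samples 4502.1, 4835.7, 4627.4 and 4460.4. Neighbouring stages overlapped and no single later step passed. Over the whole span from primary to large antral it rose by 0.41 (adjusted p = 0.0032), or by 0.40 with an adjusted p of 0.083 where the unmixed primordial values were in the fit.

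The second Itga6 probe set, 1422444_at, rose likewise at first, from 406.7, 498, 392.9 and 415.8 to 1809.8, 1377.4, 1269.2 and 1252.2 (1.65 ± 0.18, adjusted p = 3.2e-08; unmixed 1.57, 1.8e-06). Between primary and secondary the probe sets disagreed. The second fell to 591.3, 1221.4, 1043.6 and 772.2, all below the lowest primary sample (-0.67, adjusted p = 0.011), while the first was level at 0.08. It then rose by 0.59 (adjusted p = 0.027) to 1107.1, 1708.7, 1610.1 and 1026.3, and by 0.64 (adjusted p = 0.026) to 2327.7, 1913.4, 2055.8 and 2083.7. Its dip at the secondary stage was not called without primary replicate 1 (-0.55, adjusted p = 0.052) or secondary replicate 1 (-0.49, 0.06). The rise to small antral lost its call without secondary replicate 1 (0.41, adjusted p = 0.13) or 4 (0.53, 0.079) and without small antral replicate 2 (0.47, 0.11) or 3 (0.50, 0.094). The rise to large antral lost its call without small antral replicate 1 (0.55, 0.089) or 4 (0.52, 0.096) and without large antral replicate 1 (0.59, 0.076) or 3 (0.65, 0.054). Within the same array the log2 difference between the probe sets changed by -0.75 from primary to secondary (exact permutation test, two-sided, p = 0.0286, the smallest possible). After adjustment over the 16 such comparisons made for Itga6 and Itgb1 that p was 0.228. Itga6 transcripts differ at their ends by splicing, and the files do not say which of them each probe set reads.

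Itgb1 was highest in primordial oocytes by its strongest probe set, 1452545_a_at. Deposited signals were 512.1, 1182.1, 1257.7 and 1451.1 there and 390.1, 238, 298.9 and 180.9 in primary samples. The fall was 1.82 ± 0.29 on the log2 scale (adjusted p = 9.5e-06), to 0.282 of the primordial level. Unmixed primordial signals were 524, 1935.2, 2074.9 and 2506.4, and the difference from them was -2.35 ± 0.37 (adjusted p = 1.9e-05). Replicate 1 stood far below the other unmixed primordial samples and still above every primary sample. Later stages stayed low and overlapped: 302.4, 151.6, 388.6 and 379.6 in secondary, 314.2, 126.4, 270.6 and 220.1 in small antral and 321.8, 414.7, 307.7 and 292.6 in large antral samples. No step after the primary stage passed the test.

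Only 1 other Itgb1 probe set was tested. That set, 1426918_at, had stage means between 83.1 and 117.4 and passed no comparison on deposited values (primordial to primary -0.29, adjusted p = 0.23). Its unmixed difference was 0.61, of the opposite sign (adjusted p = 0.13), and 1.08 without replicate 1 (adjusted p = 0.00048). The 4 untested sets had stage means of at most 58.3, too near the floor for a test. Their means were lower in primary than in primordial samples (58.3 and 42.5, 43.8 and 23.6, 21.9 and 13.3, 8.06 and 2.4). In each of these sets the samples of those stages overlapped. Within arrays the difference between the tested sets changed by -1.53 at the first step, with p = 0.0571 by the exact permutation test (0.228 adjusted over the 16); with unmixed values it changed by -2.96, with the same p. Beside the Itgb1 fall, the summed signal of 11 theca, stroma and fibroblast markers fell from between 1374.4 and 1986.5 in primordial samples to between 878.9 and 1199.5 in primary samples. Of the 11, 5 were tested, and 0 rose and 2 fell, with either kind of value. Those were Dcn (302.2 to 31.7, a change of -2.39, adjusted p = 1.2e-06; unmixed -2.48, 1.1e-05) and Star (361.7 to 198.9), while Col1a2 was level (241 and 239.8) and the untested Pdgfra had 19.2 and 47.7. After the primordial stage the means of Dcn were between 31.7 and 62, under the signal asked for by the filter. Dcn may thus have been tested only because its primordial signal was high, and its fall is to be read with that limit. Over the unmixed primordial samples the sum was lowest in replicate 1 (1406.3) and highest in replicate 4 (2743), as was Itgb1. Sums of the endothelial (461.4 and 881) and of the blood and immune markers (587.9 and 1529.5) were also lowest in replicate 1 and highest in replicate 4. Other lists had another order. The granulosa sum (1660 and 2465.5) and the oocyte sum (70198.5 and 112896.9) were lowest in replicate 1 and highest in replicate 2. The surface epithelium sum was lowest in replicate 3 (672.2) and highest in replicate 2 (1117.8). The part of cells other than oocytes in the Itgb1 difference was not tested.

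**Figure D4:**
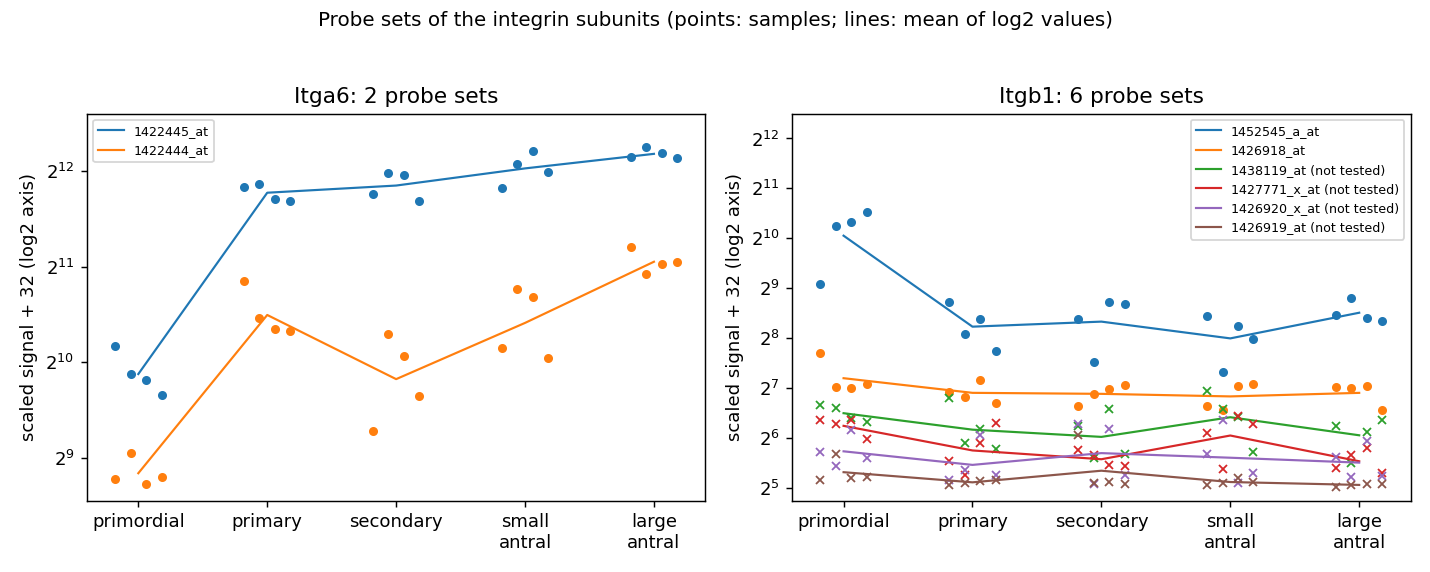
Scaled signal plus 32 (log2 axis, deposited values) of every Itga6 and Itgb1 probe set in the 4 samples of each stage; lines join the means of the log2 values and crosses are probe sets that were not tested. Both Itga6 sets rise from primordial to primary and part at the secondary stage, and only 1452545_a_at of the 6 Itgb1 sets stands high in primordial samples.

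Among 24 other integrin subunits, 22 were measured and 13 tested, and 10 of the 22 stayed under a mean of 100 at every stage. From primordial to primary 2 rose and 2 fell, or 2 and 3 with unmixed values. Over all tested probe sets of 430A 26.5% rose and 30.0% fell on deposited values. Itgav, the alpha subunit of vitronectin receptors, fell by 1.61 (944.2 to 287.8, adjusted p = 5.6e-10) and Itga9 rose by 1.0 (594.3 to 1206.4, adjusted p = 1.8e-06). From primary to secondary 2 rose and 0 fell: Itga10 by 1.23 (adjusted p = 0.00037) and Itgb5 by 0.48 (adjusted p = 0.024). From secondary to small antral Itga8 rose by 1.30 (adjusted p = 0.00023) and Itgav fell by 0.49 (adjusted p = 0.016). None of the 13 passed at the last step.

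Astl, the cortical granule protease, had the largest deposited rise of the 7 genes. On deposited values, where primordial samples share replicate 1, it also had the smallest residual SD between replicates, 0.12 on the log2 scale. Its 430B probe set 1438136_at gave 5890, 5216.2, 4854.5 and 4681.4 in primordial samples and 35227.2, 36484.9, 32508.3 and 37492.5 in primary samples. The rise was 2.78 ± 0.10 (adjusted p = 5e-17). Unmixed primordial signals of 5890, 4635.9, 3896.6 and 3598.6 gave 2.99 ± 0.14 (adjusted p = 3.7e-14). Secondary samples were 41309, 33269.6, 35034.2 and 34911.1, with no difference from primary by the test (0.03, adjusted p = 0.94). The small antral samples, 26096.2, 26764.1, 28469.6 and 30364, all lay below the secondary ones, and the large antral samples, 22378.8, 21120.4, 23710.8 and 20248.6, all below those.

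The fall of Astl was 0.37 from secondary to small antral (adjusted p = 0.02). It missed the threshold without secondary replicate 1 (-0.30, adjusted p = 0.092), small antral replicate 1 (-0.34, 0.064) or small antral replicate 2 (-0.35, 0.06). Without the 3 small antral samples whose protocol names the secondary age, 1 small antral sample is left, and its difference was -0.46 (adjusted p = 0.14, its spread taken from the other stages). The next step, -0.35, was just short (adjusted p = 0.058) and passed without primordial replicate 1 (adjusted p = 0.024). Over primary to large antral the fall was 0.70 ± 0.10, to 0.617 of the primary level (adjusted p = 5.4e-06).

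The substrate of ovastacin, Zp2, did not share the first rise. Its means were 21678 in primordial and 20424.6 in primary oocytes (-0.05, adjusted p = 0.73; unmixed -0.44, adjusted p = 0.062). The other zona pellucida glycoproteins rose at that step, Zp1 by 2.53 (adjusted p = 3.6e-16; unmixed 2.48) and Zp3 by 0.98 (adjusted p = 1.3e-08; unmixed 0.78). From primary to large antral all 3 fell, by 0.73 for Zp1, 0.52 for Zp2 and 0.55 for Zp3. Of 5 other astacin proteases 4 were tested. At the first step Mep1b fell by 2.33 (191.1 to 11.5, adjusted p = 5.8e-10; unmixed -1.45, 0.00077) and rose from secondary to small antral (23.7 to 307.2, by 2.56, adjusted p = 4.1e-09). Tll1 rose at the first step, by 1.36 (14.5 to 86, adjusted p = 0.00011). Both of these Tll1 means were under the signal asked for by the filter. Tll1 may have been tested through its antral samples, with means of 104.9 and 176.8.

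Cortical granules release Astl through the exocytosis machinery, listed as 26 genes, of which 23 were measured and 21 tested. At the first step 7 rose and 9 fell, with a median of 0, where 26.5% of all tested on 430A rose and 30.0% fell. With unmixed values 6 rose and 8 fell of 20 tested. Vamp8, a vesicle fusion protein, rose by 2.64 (174 to 1236.7, adjusted p = 4.5e-13), Nsf, the ATPase that recycles the fusion complex, by 1.39 (adjusted p = 2.3e-10) and Rab3a, a vesicle GTPase, by 1.37 (adjusted p = 1.6e-05). Vamp3 fell by 1.58 (14475.4 to 4717.9, adjusted p = 1.4e-09) and Vamp7 by 1.77 (adjusted p = 3.8e-09). Both fell again from secondary to small antral, by 1.07 and 0.54, where Rab3a fell by 1.24 and 0 rose. From small to large antral Snap23, a target membrane protein of cortical granule release, rose by 0.54 (281.6 to 429.2, adjusted p = 0.038) and 4 fell, Stx3 among them by 0.43 (adjusted p = 0.02).

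Oosp1 probe set 1418531_at gave 1750.6, 5451.5, 4088.4 and 5205 in primordial samples and 18148.7, 17031.4, 16179 and 17534.6 in primary samples. The rise was 2.18 ± 0.21 (4.52-fold, adjusted p = 2.7e-09). Replicate 1 was the lowest primordial sample. Unmixed, the others stood at 9549.5, 6657.2 and 9078.5 against 1791.2 in replicate 1, and the rise was 1.62 ± 0.31 (3.08-fold, adjusted p = 0.00018). Secondary samples were 19642.4, 20903, 18156.1 and 19899.5, the lowest just above the highest primary sample, and the difference of 0.19 missed the threshold (adjusted p = 0.59). Small antral samples were 22157.8, 23663.1, 20883 and 20270.7 and large antral samples 17487.6, 15170.6, 15336.4 and 15973.6, with no overlap.

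That last difference, -0.44 ± 0.21, also missed the threshold (adjusted p = 0.18). The spread of the primordial samples is part of the shared error. Without the primordial stage the same difference had a standard error of 0.07 and an adjusted p of 5e-04, and without primordial replicate 1 the adjusted p was 0.0012. Quantile normalization moved it to -0.01 (adjusted p = 0.98). The primary and large antral samples overlapped and did not differ by the test (-0.11, adjusted p = 0.72).

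The relatives of Oosp1 were Oosp2, Oosp3 and Plac1, and each was tested. Oosp3 rose by 3.83 from primordial to primary (2780.2 to 39975.4, adjusted p = 3.4e-20; unmixed 3.67) and by a further 0.59 to the secondary stage (60183.1, adjusted p = 9.2e-05). Oosp2 rose by 2.92 at the first step (3522.5 to 25144.3, adjusted p = 3e-12; unmixed 2.42). Plac1, best known from placenta, fell by 1.0 (593.1 to 288.6, adjusted p = 1.9e-05). After the secondary stage none of these 3 passed a consecutive step.

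The genes most like each member were taken as the 3 with the highest Pearson correlation of log2 signal over the 20 arrays of its type. For Cd9 they were Zfp707 (0.969), Rcc2 (0.955) and Arpc4 (0.952), and Zfp707 kept 0.971 over the 16 arrays without the primordial stage. Cd81 was most like Marcksl1 (0.931), Sqle (0.896) and Ptdss1 (0.891). For Izumo1r the 3 were Tcl1b4 (0.969), Ppa1 (0.967) and Mindy1 (0.966), and over 16 arrays these fell to between 0.811 and 0.833. Astl was most like Gas2l3 (0.993), Appl1 (0.990) and Patl2 (0.984), with 0.909, 0.929 and 0.966 over 16 arrays. Oosp1 was most like Bcl2l10 (0.989), Ppm1b (0.987) and E330034G19Rik (0.984), with 0.858, 0.718 and 0.596 over 16 arrays. Itga6 was most like Edrf1 (0.990), Zfand2a (0.988) and Bcl7c (0.987), with 0.888, 0.737 and 0.663 over 16 arrays. Itgb1 had 3 genes at 0.919 (Mmd, Pias2 and Atp6v1g1), which fell to between 0.49 and 0.626 over 16 arrays. These are descriptions over arrays that share stage and library.

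Markers of other ovarian cells were present to differing degrees, and some moved with stage. Summed over 16 granulosa genes of 430A, the signal rose from between 1622.3 and 1983 in primordial to between 3496.1 and 3782.2 in large antral samples. Amh and Amhr2, also on that list, had stage means of at most 25.5 and 14.4. Of 13 tested granulosa genes 7 rose and 2 fell from primordial to large antral, where 30.2% of all tested on 430A rose and 34.6% fell. Gja1 rose most clearly (75 to 815.1). The large antral means of Inha (277.7 to 568.1), Gata4 (158 to 345.2) and Nr5a2 (187.3 to 611.3) were also higher. Krt18 fell (156.3 to 33.4), and Fshr (188.2 and 190.3) and Kitl (194 and 187.8) were level. Foxl2, measured on 430B and not in that sum, had stage means between 1580 and 2111. The 6 surface epithelium genes of 430A rose from between 795.3 and 1004.1 to between 2433.4 and 2949.7, of which Cdh1, also made by oocytes, held a mean of 2405.5 at the large antral stage. Endothelial markers summed to between 451 and 642.7 in deposited primordial samples and to between 769.4 and 988.3 in large antral samples, without overlap. Unmixed primordial sums, between 461.4 and 881, overlapped the large antral ones. Blood and immune markers summed to between 458.4 and 1013.8 over all deposited samples. Cd81, Itga6 and Itgb1 are also made by somatic cells. The part of such cells in the changes of these genes was not tested.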

How the data were processed

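RNA of pooled oocytes was amplified, labelled with biotin and hybridised to Affymetrix 430A and 430B arrays, per the labels' protocols. The deposited values are 1 intensity per probe set and array, made with MAS5 per the submitters' processing notes; version, scaling target and detection calls are not given in the sources used here. Signals were multiplied per array so that the mean after trimming 2% was 500, then put on a log2 scale with 32 added, which understates changes of low signals. Probe sets with at least 4 of 20 arrays at 100 or more were tested, each array type in its own fit of all 20 arrays by limma 3.58.1 under R 4.3.3, two-sided, with 15 residual degrees of freedom and eBayes set to follow a trend of variance on mean. Genes were called at p under 0.05 after Benjamini-Hochberg adjustment over all probe sets tested on that array type.

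Unmixed values are 2 times the deposited value minus replicate 1, for primordial replicates 2 to 4, set to 0 where negative, with 100 probe sets of 430A left out because their values carry more decimals than the rest at other stages too. The members, gene lists and comparisons were chosen with earlier results of these data known. A gene is represented by its tested probe set of highest mean log2 signal, 430A before 430B. Named list genes are up to 3 called genes per comparison and direction with the smallest adjusted p, and other named genes were chosen after their values were seen. Symbols came from the platform annotation, which gave 1 symbol to 20380 of the 22626 probe sets of 430A, and on 430B to 14565 of 22411. Of 80 same-numbered sample pairs 3 had deviations that correlated above 0.1. Pairing by replicate number was not detected in this way and is not stated in the labels, so the main fits used no block. The number of arrays limits the precision; the median standard error of a stage difference was 0.17 on 430A and 0.34 on 430B.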

Additional observations from a re-analysis of the deposited data

Results flagged for a closer look

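In 2 of the 45 groups of 4 samples tested among the 9 tested probe sets, 1 sample stood apart from the rest of its stage by Dixon's criterion, and chance gives about 1 in 20. Both were for the weaker Itgb1 probe set 1426918_at. Its highest primordial sample had 174.6 while the nearest of the others had 102.8, and its lowest large antral sample had 62.2 while the nearest had 95.2. The high primordial sample was replicate 1, with which the other deposited primordial samples share their values.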

How the results depend on the processing

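The directions and calls of the 7 genes from primordial to primary held under every alternative run but for Cd81, whose difference passed with no further scaling (adjusted p = 0.043), in a fit of those stages alone (0.027) and with unmixed primordial replicates 2 to 4 only (-0.70, 0.024). Called values of opposite sign to the deposited one came up for Cd9 from primordial to large antral, -0.13 as deposited, 1.44 unmixed and 2.17 with unmixed replicates 2 to 4 only, and for Itgb1 probe set 1426918_at with unmixed replicates 2 to 4 only (1.08 to primary and 1.07 to large antral). With unmixed values the probe sets called numbered 1226 on 430A and 423 on 430B from primary to secondary, 1268 and 526 from secondary to small antral, and 395 and 110 from small to large antral, against 2887, 1024, 2577, 1063, 1643 and 358. The primordial spread in the shared error is part of how those fits are built. Without a mean-variance trend 430B had 658 from primary to secondary and 163 at the last step. That last 430B count was 225 with arrays scaled to the same median, 112 in a fit of those stages alone and 184 with unmixed replicates 2 to 4 only, and the secondary to small antral count was 453 without the 3 small antral samples of doubtful age. From primary to secondary 1 gene was called, not 2, with no filter, with no trend and with unmixed values, since Izumo1r missed (adjusted p = 0.052, 0.06 and 0.14). From secondary to small antral 1 was called, not 2, with equal medians, no trend, those stages alone or unmixed replicates 2 to 4 only, and 0 with unmixed values. From small to large antral 2 were called with quantile normalization, 2 with those stages alone and 3 without the primordial stage. Leaving out each sample in turn gave 1 to 2 called genes from primary to secondary, 1 to 2 from secondary to small antral and 0 to 3 from small to large antral, and 1041 to 2065 probe sets on 430A and 218 to 447 on 430B at that last step. The fit with the replicate number as a block called 8909 probe sets on 430A from primordial to primary against 8945 and changed no call of the 9 member probe sets. After the primary stage Cd81 lies between 59.5 and 189.1, close to the filter's 100, where the 32 added shrinks a change.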
